A study of Mus musculus with 5 samples.

Results

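The Nuclear factor I genes are the 4 genes Nfia, Nfib, Nfic and Nfix, taken by name from the 21883 protein-coding genes of the mouse RefSeq annotation. Peaks of all 4 deposited lists within 100 kb of each gene body (mm10) were collected: 28 of 7458 TLX peaks of neural stem cells (NSC), 7 of 1436 TLX peaks of brain tumor stem cells (BTSC), 86 of 31266 H3K27ac peaks of NSC and 105 of 31597 of BTSC. TLX, an orphan nuclear receptor made by Nr2e1, was precipitated through a TY1 antibody from mouse NSC or BTSC cultures that carried a retroviral TLX-3xTY1 and had been selected with G-481. H3K27ac, an acetylation of histone H3 found at active promoters and enhancers, was measured in NSC and BTSC that were not transduced, so TLX and H3K27ac come from separate cells. Each group is 1 library. A control without antibody, from cells with the empty vector MSCV-neo, has no peak list here. The growth description, the same for every library, speaks only of primary neural stem cells and does not say how the BTSC arose or whether either culture is a clone.

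Nuclear factor I proteins are transcription factors that share a DNA-binding domain, form dimers and recognise the pentamer TTGGC, most tightly as a palindrome of it. In the developing nervous system NFIA and NFIB help start the making of glia, and NFIX is linked to the quiescence of neural stem cells. NFIC is best known from the growth of tooth roots. TLX binds the hexamer AAGTCA and keeps neural stem cells in a dividing, undifferentiated state.

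Of 10 marker genes of neural stem cells, 8 had H3K27ac within 1 kb of a gene end in NSC and 7 in BTSC, with Prom1 missing from the latter and Pax6 and Msi1 from both. The same held for 4 of 6 neuron markers in NSC and 1 in BTSC, 0 and 2 of 5 oligodendrocyte markers, and 0 of 5 microglia and 0 of 5 endothelial markers in either list. No share over all genes is set beside these counts, so they do not establish cell identity. Called H3K27ac covered 68.5 Mb in NSC and 74.1 Mb in BTSC. With 1 library per group no replicate error can be given and no test was made. The depth of each library is unknown, so a peak missing from a list was not called at that library's depth and is not shown to be absent.

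The RefSeq starts of Nfia, Nfic and Nfix and the high-coordinate end of Nfib lay in H3K27ac peaks of both cultures. Sequences at such starts are shown. At Nfic the peak over the start ended within the printed run, at position 81427300 in NSC (fold 2.90) and 81427226 in BTSC (fold 3.71). Each run is the 250 bases before a RefSeq start (GRCm38.p6, the assembly of mm10), read 5′ to 3′ on the strand of the gene, with AAGTCA or TTGGC on either strand in capitals. The first is the start of Gm11266, a long non-coding RNA gene that begins just beyond the high-coordinate end of Nfib, since its 250 bases lie wholly inside the strongest TLX peak near Nfib in NSC. Those of Nfia and Nfic follow, with the 1 of the 4 starts of Nfix whose match lies farthest upstream. The table of starts used here lists Nfia, Nfic and Nfix; Nfib is named only.
Gm11266 (chr4:82507739-82507988, + strand): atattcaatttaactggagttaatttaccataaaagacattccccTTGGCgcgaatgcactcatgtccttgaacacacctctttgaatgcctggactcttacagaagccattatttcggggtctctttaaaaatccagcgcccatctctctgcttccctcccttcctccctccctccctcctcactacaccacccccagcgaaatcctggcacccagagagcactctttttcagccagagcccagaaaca
Nfia (chr4:97581693-97581942, + strand): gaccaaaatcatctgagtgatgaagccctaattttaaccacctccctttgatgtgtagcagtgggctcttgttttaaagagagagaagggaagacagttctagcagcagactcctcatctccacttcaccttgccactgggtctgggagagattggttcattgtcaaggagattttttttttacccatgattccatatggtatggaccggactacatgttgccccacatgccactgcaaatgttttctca
Nfic (chr10:81427174-81427423, - strand): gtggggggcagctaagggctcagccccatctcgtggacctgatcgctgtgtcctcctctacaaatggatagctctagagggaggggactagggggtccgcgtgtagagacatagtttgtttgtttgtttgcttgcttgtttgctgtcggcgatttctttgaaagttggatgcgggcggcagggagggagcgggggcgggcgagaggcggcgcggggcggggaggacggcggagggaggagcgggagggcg
Nfix (chr8:84775829-84776078, - strand): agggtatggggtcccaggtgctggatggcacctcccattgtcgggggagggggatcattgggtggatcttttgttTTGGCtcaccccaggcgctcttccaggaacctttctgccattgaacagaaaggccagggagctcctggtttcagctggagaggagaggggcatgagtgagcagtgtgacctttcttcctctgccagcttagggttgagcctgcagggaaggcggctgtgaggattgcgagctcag

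The windows from 250 bases before to 50 after the starts of Nfia and Nfic held no AAGTCA and no TTGGC, searched on both strands. Of the 4 starts of Nfix, 0 held AAGTCA and 3 held TTGGC. The window of Gm11266 held 1 TTGGC match and no AAGTCA. Among all 32851 promoter windows of the table, 15.1% held AAGTCA, 46.7% held TTGGC, and 0.0365% held the palindrome of TTGGC with 5 bases between its arms, which contains the pentamer. None of these windows of Nfia, Nfic, Nfix and Gm11266 held the palindrome. A match or its lack describes these letters only.

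TLX peaks lay within 100 kb of all 4 genes in NSC and of Nfia, Nfib and Nfix in BTSC. Over all protein-coding genes, 55.5% had such a peak in NSC, 16.1% in BTSC and 15.2% in both. Nfia had 15 TLX peaks in NSC and 2 in BTSC, Nfib 8 and 4, Nfix 4 and 1, and Nfic 1 and 0. The NSC list is the longer of the lists. The 28 peaks are 0.375% of the NSC list (exact 95% interval 0.250 to 0.542) and the 7 peaks are 0.487% of the BTSC list (0.196 to 1.00), and these intervals, which cover counting error only, overlap. With the NSC list reduced to its strongest peaks, as many as in BTSC, the NSC counts were 3 at Nfia, 1 at Nfib, 0 at Nfic and 1 at Nfix. The order of the cultures then differed between genes, with more NSC than BTSC peaks at Nfia, fewer at Nfib and equal numbers at Nfic and Nfix.

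**Figure D1:**
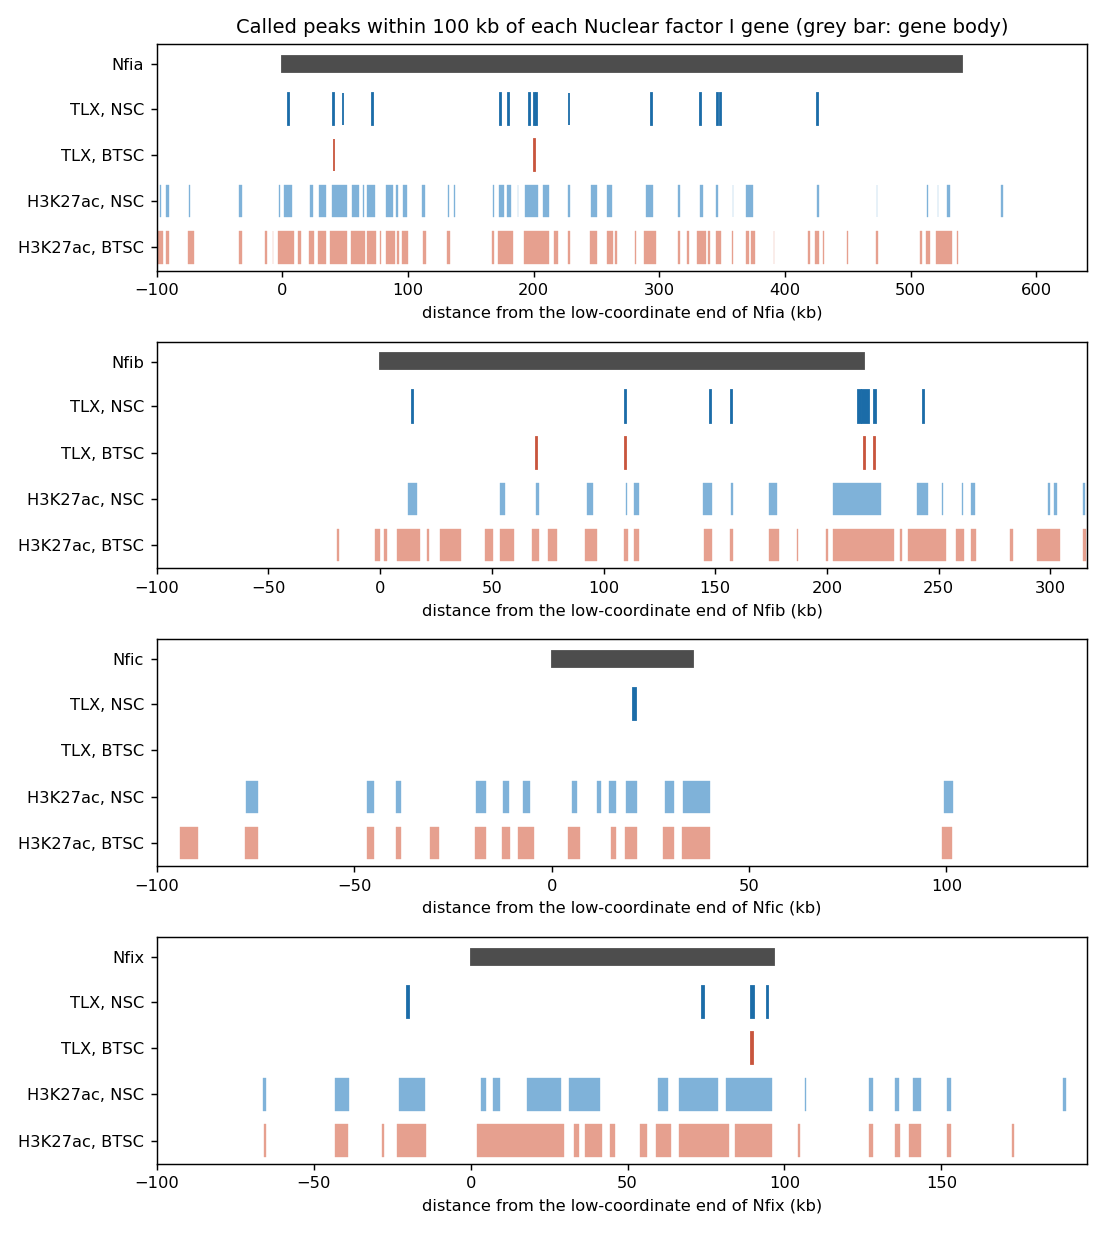
Called peaks of the 4 lists within 100 kb of each gene, with distance from the low-coordinate end of the gene in kb on the x axis and 1 track per list; TLX peaks are outlined so that narrow ones can be seen, and the grey bar is the gene body. Nfia has 15 TLX peaks in NSC and 2 in BTSC, all inside the gene, and the H3K27ac tracks of Nfia and Nfib hold wider blocks in BTSC.

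The genes differ in length, and the counts were also read per length. Nfia spans chr4:97578066-98118876 (541 kb) and Nfib chr4:82290173-82506751 (217 kb), with no other protein-coding gene in either window. Nfix spans chr8:84704712-84801238 (96.5 kb) with 12 other protein-coding genes in its window, and Nfic spans chr10:81396191-81431919 (35.7 kb) with 16. In NSC, TLX peaks per 100 kb of window were 2.02 at Nfia, 1.92 at Nfib, 1.35 at Nfix and 0.424 at Nfic, against a median of 0.379 over all protein-coding genes. A density at least as high as that of Nfia was found at 2.27% of genes, and for Nfib, Nfix and Nfic these shares were 3.20%, 9.43% and 46.3%. The same windows were also rich in called H3K27ac. In NSC it covered 16.2% of the window at Nfia, 12.8% at Nfib, 25.7% at Nfix and 13.0% at Nfic. The median over all protein-coding genes was 4.19%. Since 91.6% of all NSC TLX peaks lay in H3K27ac, density per window does not separate TLX from acetylation, and density per acetylated length was not ranked. In BTSC the densities were 0.270 at Nfia, 0.960 at Nfib, 0.337 at Nfix and 0 at Nfic. A BTSC density at least that of Nfib was found at 1.12% of genes, at least that of Nfix at 14.1% and at least that of Nfia at 15.1%. The median over all genes was 0 and only 16.1% had any BTSC peak. Nfix and Nfia were thus low among the genes with a peak. Nfib had the highest density of the family in BTSC. In NSC Nfia and Nfib were close, and by the share of the window that TLX peaks covered their order was the reverse, with 1.39% at Nfia and 1.78% at Nfib.

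Nfia, the longest of the genes, held all its TLX peaks inside the gene body. The strongest in NSC, at chr4:97618497-97619528, had a fold enrichment (the authors' ratio of signal over background) of 11.1 and ranked 207 of 7458 by q. It lay 41002 bp inside the low-coordinate end. A BTSC peak at chr4:97618772-97619214 overlapped it, with a fold of 5.32 and summits 37 bp apart. The next in NSC, at chr4:97923831-97924588, had a fold of 8.93 and rank 361, and no BTSC peak overlapped it. The peak at chr4:98003989-98004657 came after it with a fold of 6.88, and it too had none in BTSC.

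The other Nfia site of both lists was weaker. In NSC it spanned chr4:97778226-97779066 with a fold of 5.16 and rank 3088, and in BTSC chr4:97778288-97778913 with a fold of 4.81; the summits were 18 bp apart. It was 1 of 3 NSC TLX peaks in a single H3K27ac peak, and its summit lay 200473 bp into the gene. A TLX peak of NSC with a fold of 4.78, at chr4:97582608-97583709, lay 1461 bp from the RefSeq start of Nfia by its summit. The nearest BTSC summit was 37088 bp from that start.

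At Nfib 3 of the 8 NSC peaks and 2 of the 4 BTSC peaks lay in 1 H3K27ac peak across the high-coordinate end. In NSC a peak of 2758 bp, the widest TLX peak of the family, spanned chr4:82506058-82508815 across that end with a fold of 7.44 and rank 402. The BTSC peak at chr4:82506749-82507388 lay within it, with a fold of 6.80 and rank 198 of 1436, and the summits were 85 bp apart. A further site in both lists lay at chr4:82511021-82512168 in NSC (fold 6.12) and chr4:82511201-82511863 in BTSC (fold 7.10). Both sites lay in 1 H3K27ac peak in each culture, together with a weaker NSC peak at chr4:82504110-82505324. Inside the gene, a site at chr4:82399861-82400375 (fold 5.35) overlapped a BTSC peak with a fold of 5.26. The BTSC peak at chr4:82360107-82360524, with a fold of 4.79, was the only TLX peak of the family in the BTSC list alone.

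Nfix and Nfic had few TLX peaks. At Nfix the strongest in NSC, chr8:84793940-84794930 with a fold of 6.69, lay 6963 bp inside the high-coordinate end and overlapped the single BTSC peak, chr8:84793953-84794584, with a fold of 5.04 and a summit 12 bp away. The other 3 NSC peaks had folds from 3.44 to 4.40, among them chr8:84799017-84799463 near the same end. That at chr8:84684392-84684957 was nearest to an end of Trmt1, a neighbour, and not of Nfix; for the other 27 NSC peaks and all 7 BTSC peaks the nearest protein-coding gene end was that of a Nuclear factor I gene. At Nfic the single NSC peak, chr10:81416885-81417636, had a fold of 5.74 and lay inside the gene, 14818 bp from its high-coordinate end.

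**Figure D2:**
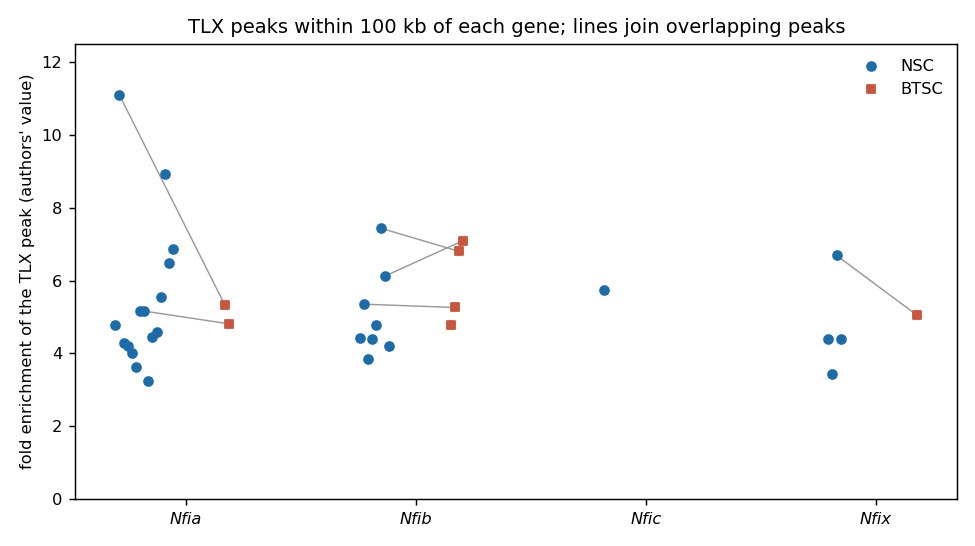
Fold enrichment of every TLX peak within 100 kb of each gene (y axis, the authors' value within each library), with NSC as circles, BTSC as squares and lines between overlapping peaks; sideways position within a group has no meaning. The 28 NSC folds run from 3.25 to 11.1 and the 7 BTSC folds from 4.79 to 7.10; folds come from separate libraries and their difference is not a measured change.

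Of the 28 NSC TLX peaks, 6 overlapped a BTSC TLX peak, which is 21.4% (8.30 to 41.0) against 15.8% of the whole list. Of the 7 BTSC peaks, 6 overlapped an NSC peak, 85.7% (42.1 to 99.6) against 81.8%. Both shares lie near those of their lists. Split by strength, 3 of 6 NSC peaks with a −log10 q of at least 15 were found in BTSC, against 43.7% of such peaks in the list. From 8 to 15 it was 3 of 7 (42.9%, 9.90 to 81.6) against 14.0% in the list, and under 8 it was 0 of 15 against 4.87%. In each class the exact interval of the small count includes the share of the list.

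TLX peaks near these genes lay in acetylated chromatin about as often as those of the whole lists. In NSC, 27 of 28 overlapped an H3K27ac peak of NSC (96.4%, 81.7 to 99.9), beside 91.6% of the whole list. In BTSC, 7 of 7 overlapped one of BTSC, beside 93.2%. The exception, chr4:97926681-97927352 in Nfia with a fold of 6.49, lay in the BTSC H3K27ac peak chr4:97923350-97927450, which the NSC peak chr4:97923535-97925150 overlaps elsewhere. In NSC the other 14 TLX peaks of Nfia lay in 11 H3K27ac peaks and the 8 of Nfib in 6, with up to 3 in a single one at either gene.

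Called H3K27ac covered more base pairs in BTSC than in NSC around each of the 4 genes, and most so around Nfib and Nfia. At Nfib 53.1 kb of the window were covered in NSC and 125.6 kb in BTSC, a ratio of 2.37. At Nfia the values were 119.8 and 205.1 kb, a ratio of 1.71. At Nfic they were 30.7 and 41.6 kb (1.35) and at Nfix 76.3 and 95.2 kb (1.25). Over the 18021 protein-coding genes with at least 1000 covered bp in either list the median ratio was 1.09. A ratio of at least 1.5 in favour of BTSC was found at 17.8% of them and in favour of NSC at 11.6%; Nfia and Nfib passed it and Nfic and Nfix did not. A ratio at least as high was found at 3.88% of genes for Nfib, 11.0% for Nfia, 26.2% for Nfic and 34.5% for Nfix.

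The wider surroundings of Nfia and Nfib moved the same way. In the 1 Mb on either side of the Nfib window, covered length was 56.6 kb in NSC and 103.5 kb in BTSC, a ratio of 1.83, and relative to it the ratio of Nfib was 1.29. Around the Nfia window it was 64.9 and 97.5 kb, leaving 1.14 for Nfia. Both relative ratios fall short of 1.5, so the difference in covered length is not restricted to the windows of these genes. Around Nfix the neighbourhood went the other way, with 143.4 kb in NSC and 123.0 kb in BTSC, and relative to it the ratio of Nfix was 1.45; that of Nfic was 1.20. Over chromosome 4 as a whole the ratio was 1.09, over chromosome 8 1.01 and over chromosome 10 1.04.

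**Figure D3:**
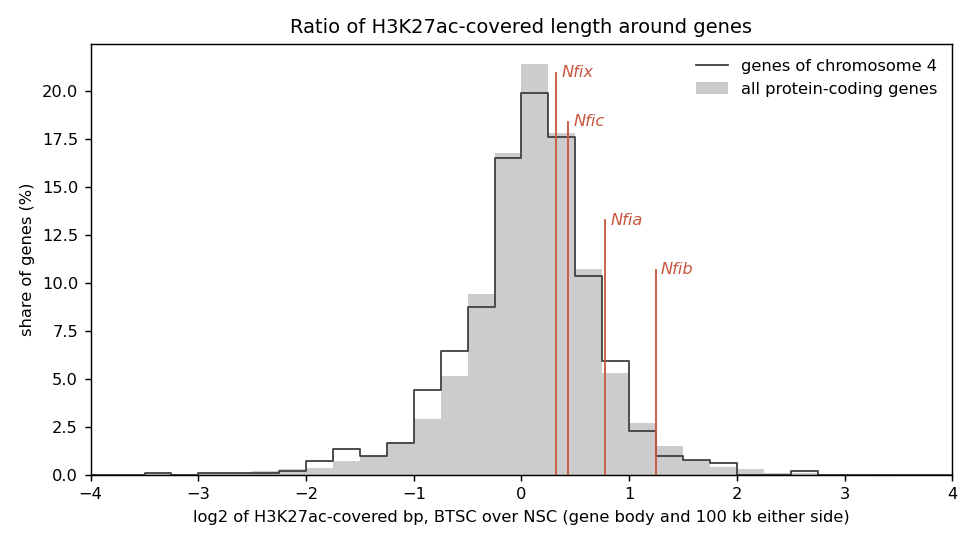
Share of protein-coding genes (y axis, percent) by the log2 ratio of H3K27ac-covered base pairs in BTSC over NSC in the gene body and 100 kb either side (x axis), for all genes with at least 1000 covered bp in a list and some in both (grey; values beyond 4 are in the outermost bins) and for those of chromosome 4 (line). The red lines, whose heights have no meaning, mark the ratios of 1.25 for Nfix, 1.35 for Nfic, 1.71 for Nfia and 2.37 for Nfib.

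Nearly all NSC acetylation near these genes was also called in BTSC. Of NSC H3K27ac peaks, 80 of 86 overlapped a BTSC peak (93.0%, 85.4 to 97.4), beside 79.0% of the whole list, and at Nfib it was 17 of 17. Of BTSC peaks, 72 of 105 overlapped an NSC peak (68.6%, 58.8 to 77.3), beside 76.8%. These intervals treat peaks as independent, although many are neighbours at the same gene, and they are no test of a difference. In base pairs, 98.3% of the NSC cover at Nfib, 95.1% at Nfia, 94.4% at Nfic and 89.5% at Nfix was covered in BTSC too, against 74.5% over the whole lists. In the other direction, 41.5% of the BTSC cover at Nfib and 55.6% at Nfia was covered in NSC, below the 68.9% of the whole lists, whereas Nfic with 69.7% and Nfix with 71.7% were slightly above it. At Nfib and Nfia the shares could not have reached 68.9%, because NSC cover there was too small beside BTSC cover. There they restate the ratios of covered length given above.

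At Nfia, Nfib and Nfix most of the cover called in BTSC alone belonged to peaks that overlapped an NSC peak, which was so over the whole list as well: 19.2% of all BTSC cover was of this kind and 12.0% lay in peaks with no NSC overlap. At Nfib these shares were 38.0% and 20.4%, and at Nfia 33.7% and 10.8%. At Nfia 69.0 kb of BTSC cover extended peaks that overlapped an NSC peak and 22.1 kb lay in 15 peaks with no NSC overlap. At Nfib these were 47.8 kb and 25.6 kb in 11 peaks. The 11 peaks were weak, with folds from 2.31 to 3.11, and the widest of them, chr4:82317130-82326463, had a −log10 q of 1.89. With a −log10 q of at least 5 required in both lists the ratio of Nfib was 1.95. At Nfix 21.2 kb and 5.7 kb, and at Nfic 6.0 kb and 6.7 kb, were of the former and the latter kind.

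The base pairs were placed differently around each gene. At Nfia most lay in the gene body, 111.3 kb in NSC and 184.4 kb in BTSC. The flank on the low-coordinate side had 7.1 and 20.7 kb, and that beyond the other end 1.4 and 0.0 kb. The RefSeq start of Nfia lies inside the body, near its low-coordinate end. At Nfib the body held 35.5 and 72.6 kb and the high-coordinate flank 17.7 and 50.0 kb, while the low flank had 0.0 and 3.0 kb. At Nfix the body held 54.7 and 71.0 kb. At Nfic the body was nearly level, with 11.7 and 12.9 kb, and the low flank, which holds several neighbouring genes, had 12.4 and 21.7 kb.

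**Figure D4:**
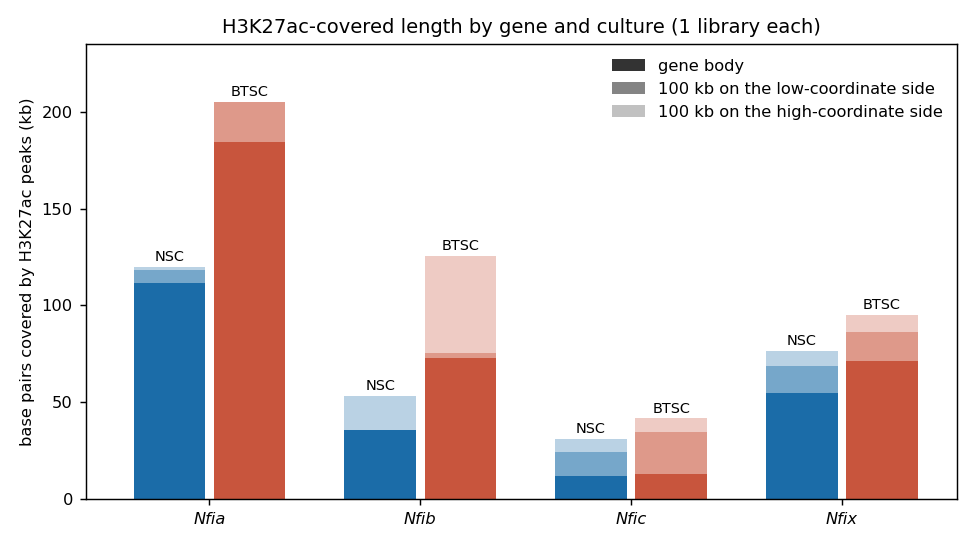
Length covered by called H3K27ac peaks in kb (y axis) for each gene and culture, stacked as gene body (dark), flank of 100 kb on the low-coordinate side (middle) and on the high-coordinate side (pale); each bar is 1 library. BTSC bars are taller at all 4 genes, with 125.6 against 53.1 kb at Nfib and 205.1 against 119.8 kb at Nfia.

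Single domains give examples of the called widths, among them those with most cover beyond the other list. With the depth of each library unknown, a wider call is not shown to be a wider region. The domain across the high-coordinate end of Nfib, which holds the TLX sites above, spanned 21437 bp in NSC (chr4:82492698-82514134) and 27452 bp in BTSC (chr4:82492668-82520119), ranking 68 and 64 by width in their lists. Beyond it a peak of 4736 bp in NSC (chr4:82530547-82535282) lay, with a smaller one, inside a BTSC peak of 17112 bp (chr4:82526459-82543570). Further out on the same side, a BTSC peak of 10201 bp (chr4:82584284-82594484) held only 2016 bp called in NSC. Near the low-coordinate end of the gene, 4319 bp in NSC (chr4:82302480-82306798) lay in 10497 bp in BTSC (chr4:82297544-82308040).

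At Nfia the domain over the RefSeq start spanned 6146 bp in NSC (chr4:97579347-97585492, fold 23.1) and 13264 bp in BTSC (chr4:97574423-97587686, fold 22.0). The widest NSC domain, chr4:97617234-97629171 with 11938 bp, held the strongest TLX site and measured 13739 bp in BTSC (chr4:97615969-97629707). The widest BTSC domain of the gene, chr4:97770709-97790147 with 19439 bp, held 2 NSC peaks, and 15267 bp of it were called in NSC. The wider of the 2, with 10661 bp, held the weaker TLX site of both lists, and the other had 4606 bp. Near the far end of the gene a BTSC domain of 12808 bp (chr4:98098280-98111087) held 2841 bp called in NSC.

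At Nfix the widest BTSC domain, 27593 bp at chr8:84706853-84734445, lay in the low-coordinate part of the gene and spanned 3 NSC peaks, the widest of them 11053 bp. The domain over the 4 RefSeq starts measured 12196 bp in NSC (chr8:84771204-84783399) and 16156 bp in BTSC (chr8:84770964-84787119). The one that held the TLX site of both lists was narrower in BTSC, with 14812 bp in NSC and 11773 bp in BTSC. At Nfic the domain across the high-coordinate end was nearly equal, with 6736 bp in NSC (chr10:81429548-81436283) and 7120 bp in BTSC (chr10:81429272-81436391). A BTSC peak of 4440 bp near Nfic, chr10:81302101-81306540, had a fold of 2.45 and no NSC peak.

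Acetylated regions that held NSC TLX peaks were mostly wider in BTSC at Nfia and Nfib. Of 27 NSC TLX peaks with H3K27ac in both cultures, 14 of 14 at Nfia, 7 of 8 at Nfib, 1 of 1 at Nfic and 2 of 4 at Nfix lay in a region wider in BTSC, beside 49.4% of all such NSC TLX peaks. The median width ratio of BTSC over NSC was 1.82 at Nfia, 1.30 at Nfib and 0.93 at Nfix, against 1.00 over the list. Each ratio compares only the widest single peak of either culture, so a BTSC peak that joins several NSC peaks raises it. At Nfia the BTSC peak of 19439 bp spans 2 NSC peaks, and the wider of these holds 3 of the 14 TLX peaks. The BTSC peaks of 11998 bp and 13264 bp at Nfia also span 2 NSC peaks each and hold further TLX peaks of the 14. TLX peaks that share a region count it repeatedly. Covered length was greater in BTSC over the windows of Nfia and Nfib in total, though not in the high-coordinate flank of Nfia (1.4 kb in NSC and 0.0 kb in BTSC). A tie of the wider calls to TLX was not tested.

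The genes of most similar pattern were taken from 4 values, namely the number of TLX peaks in each culture and the H3K27ac-covered bp per kb of window in each, by Euclidean distance of log2(value + 1), each divided by its SD over all protein-coding genes. For Nfia they were Ptn, a secreted growth factor gene (12 and 2 TLX peaks in NSC and BTSC), Septin9 (10 and 2) and Lrig1 (11 and 2). For Nfib they were Nav1 (9 and 4), Slc38a10 (7 and 4) and Ttyh3 (6 and 4). The match was loose in acetylation for both genes. Nfib had 128 covered bp per kb in NSC and 302 in BTSC, whereas Nav1 had 180 and 209. Nfia had 162 and 277, whereas Ptn had 268 and 322, Septin9 242 and 255, and Lrig1 343 and 380. For Nfix they were Isyna1, Ssbp4 and Msln, each with 4 and 1 TLX peaks, and for Nfic they were Vrk3, Pfn1 and Cend1, each with 1 and 0.

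Among 17 genes listed as partners or targets of Nuclear factor I proteins in neural stem cells and glia, 15 had at least 1 NSC TLX peak in their windows, and 9 of these 15 also had at least 1 from BTSC. None had a BTSC peak alone. Over all protein-coding genes the shares were 55.5% for NSC, 16.1% for BTSC and 15.2% for both. The windows of the 17 genes also held more called H3K27ac. Its median share of the window was 8.19% in NSC and 11.0% in BTSC, beside 4.19% and 4.63% over all genes. The TLX counts were not adjusted for this. Those with a peak in both were Sox9, which acts upstream of Nfia in gliogenesis (3 peaks in NSC and 1 in BTSC), Olig2 (9 and 5), Notch1 (6 and 3), Hes1 (4 and 1), Bbx (1 and 1), the astrocyte filament gene Gfap (2 and 1), the glutamate transporter gene Slc1a3 (4 and 3), Apcdd1 (1 and 1) and Zcchc24 (7 and 1). H3K27ac-covered length was at least 1.5 times higher in BTSC at 4 of 17, namely Apcdd1 (1.9 kb in NSC and 11.8 kb in BTSC), the water channel gene Aqp4 (6.7 and 23.3 kb), Mmd2 (23.0 and 36.5 kb) and Zbtb20 (59.1 and 90.2 kb). It was lower by as much at 1, Hes1, a Notch-induced repressor, with 16.1 kb in NSC and 8.5 kb in BTSC. Over all genes 17.8% passed in favour of BTSC and 11.6% in favour of NSC, so these small counts are near the background. The median ratio of the list was 1.24, beside 1.09 over all genes.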

How the data were processed

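The data were 4 deposited peak lists, each from a single library: narrowPeak files for TLX, broadPeak files for H3K27ac. The submitters' processing notes name Bowtie, ChIPseeker, bcl2fastq (2.17.1.14) and the build mm10. No peak caller, setting or read number is named in the sources used here. Each deposited peak has a fold enrichment (a linear ratio over background), a −log10 p-value and −log10 q-value, and a score that is 10 times the −log10 q cut to a whole number. These are the authors' values and were used only within a list. Gene positions and promoter sequences came from RefSeq, GRCm38.p6, as gene spans; whether a peak lies in an exon, an intron or a UTR was not analysed here. No genome sequence was used, so TLX peaks were not searched for motifs.

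Peaks overlapping a gene body widened by 100 kb were counted with Python 3.11.15 and pandas 2.3.3; an overlap was at least 1 bp, and cover is the joined length of called peaks, clipped to the window. Intervals are exact Clopper-Pearson (SciPy 1.17.1) and treat peaks as independent, although many are neighbours at the same gene. Symbols occurring more than once were counted once. Named were all members, the TLX peaks of highest q and those in both lists, the widest H3K27ac peaks and those at gene ends, 3 similar genes per member, and list genes with TLX in both cultures; the domains with most cover beyond the other list, and list genes past a ratio of 1.5, were named after their values were seen. Members and lists were chosen with earlier results of these data known. Interval counts were tested on simulated data.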

Additional observations from a re-analysis of the deposited data

How the results depend on the processing

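TLX counts kept within 1.5 times of the reported ones with windows of 50 or 10 kb, with a −log10 q of at least 5, and with only the peaks nearest to the gene: they were 25 to 28 in NSC and 7 in BTSC. With the NSC list reduced to as many peaks as BTSC has, 5 NSC peaks lay near the 4 genes, of which 3 overlapped a BTSC peak, and 3 BTSC peaks overlapped an NSC peak. With a reciprocal overlap of 50%, 4 of either list were shared. The ratio of H3K27ac-covered bp, BTSC over NSC, ran from 1.59 to 1.71 at Nfia, 1.95 to 2.37 at Nfib, 1.09 to 1.41 at Nfic and 1.23 to 1.31 at Nfix under narrower windows, the stricter q, only peaks nearest to the gene, peaks within 1 kb joined, and division by the ratio of the rest of the chromosome. Relative to the 1 Mb on either side, an alternative chosen after seeing the data, it was 1.14 at Nfia and 1.29 at Nfib, below 1.5, and 1.20 at Nfic and 1.45 at Nfix. No paired analysis was possible because each group has 1 library, and no replicate could be left out. Unknown depth limits every count of missing peaks, every called width and the ratios of covered bp.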
